A study of Auxenochlorella pyrenoidosa with 12 samples.

Results

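A group of 145 transcripts of the green alga Auxenochlorella pyrenoidosa stood at 1 level at high nitrate and at a lower, common level at low and no nitrate. They were picked from 16413 assembled transcripts ("features") by their CPM, a feature's estimated counts scaled to the total of its library. The group means had to be at least 5 CPM at both higher nitrate levels and less than 1.2-fold apart there. Both lower nitrate levels had to be at most 0.5 of both of those means and within 1.5-fold of each other. All comparisons of the members between groups therefore describe how they were chosen, and no test of them is read as support.

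The alga, a unicellular freshwater species carried under the strain label SHOU-1002, was grown at 4 concentrations of sodium nitrate, its nitrogen source. The groups were N0 (0 g/L NaNO3), N0.5 (0.5 g/L), N1 (1 g/L) and N1.5 (1.5 g/L, the control), with 3 libraries each, which the design text calls biological repeats. RNA came from whole cultures and was selected for poly(A) tails, which leaves few organelle transcripts in the libraries. The labels used here state no harvest time, growth stage or batch. In whole cultures, a transcript made by fewer cells and less of it in each cell cannot be told apart, and CPM gives shares of the RNA sequenced, not amounts per cell.

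Nitrate enters algal cells through nitrate transporters and is reduced to nitrite by nitrate reductase and then to ammonium by nitrite reductase. Glutamine synthetase and glutamate synthase build that ammonium into amino acids. Green algae short of nitrogen generally slow protein synthesis, take down part of their photosynthetic apparatus and store carbon as starch and triacylglycerol, and the study addressed the transcripts behind lipid accumulation. The files give the features only assembly names, with no gene names, functions or sequences, so none of the 145 can be assigned to these pathways. For the same reason 2 members are named by their IDs and the rest are described by rank, level and length.

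The libraries held between 22027761 and 24383226 estimated counts, and the members had at least 18.8 counts in each of them. The median member had 255 to 305 counts in an N0 or N0.5 library and 660 to 802 in an N1 or N1.5 library. Some libraries held a trace of transcripts nearly restricted to N0. Over 41 features with at least 5 CPM in N0 and under 2% of that level in the other groups' means, the median level was 0.133 to 1.22% of N0 in the N0.5 libraries, 0.268 to 0.777% in N1 and 0.339 to 1.24% in N1.5. The highest values were in N0.5 replicates 1 and 2 and N1.5 replicate 3, and N1 replicate 1 was the highest in its group. The rule applied without these 4 libraries, which leaves 1 library in N0.5, gave 137 members, of which 111 were among the 145.

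The conditions narrowed the table in steps. Of the 16413 features, 10587 averaged at least 5 CPM in N1.5 and N1, and 9161 of these were less than 1.2-fold apart. Among those steady features, 763 (8.33%) stood at 0.5 or less in N0.5, 1069 (11.7%) in N0 and 234 (2.55%) in both. Of the 234, 145 had N0.5 and N0 within 1.5-fold, 57 were further down in N0.5 and 32 further down in N0. The edges are not gaps in the data. The least lowered member stood at 0.499 of the lower of its N1.5 and N1 means and the nearest feature outside at 0.500. The widest pair of low levels was 1.49-fold apart inside and 1.51-fold outside, and the widest pair of high levels inside was 1.19-fold apart, with the next just over the limit. The least abundant member had 5.28 CPM in the lower of its 2 high groups, against 4.40 CPM for the nearest feature below the limit.

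The members were lower in every N0 and N0.5 library than in any N1 or N1.5 library, and few of them fell far. All 145 had all 6 low-nitrate libraries below all 6 high-nitrate ones, as had 18.6% of the 15429 features tested. The median member kept 38.9% of its N1 and N1.5 level. For 59 members the fall was under 2.5-fold, for 51 between 2.5- and 3-fold, for 22 between 3- and 4-fold and for 13 by 4-fold or more. For 70 members even the highest low-nitrate library was at most 0.5 of the lowest high-nitrate library, which held for 0.894% of the tested features.

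Set per library against each member's N1 and N1.5 mean, the median member stood at 39.4, 42.3 and 37.5% in the N0 libraries and at 35.7, 37.7 and 39.3% in the N0.5 libraries. It stood at 100.3, 97.3 and 97.6% in N1 and at 101.7, 103.6 and 98.7% in N1.5. The libraries within a group differed by a few percentage points, and the low and high pairs of groups did not come near each other. In N0, replicate 3 was the lowest of the 3 libraries for 96 members (66.2%, against 38.3% of the features at 5 CPM or more in N1.5 and N1). N0 replicate 2 was the highest for 97 members (66.9%, against 55.9%). In N0.5, replicate 1 was the lowest for 76 members (52.4%, against 42.8%).

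**Figure D1:**
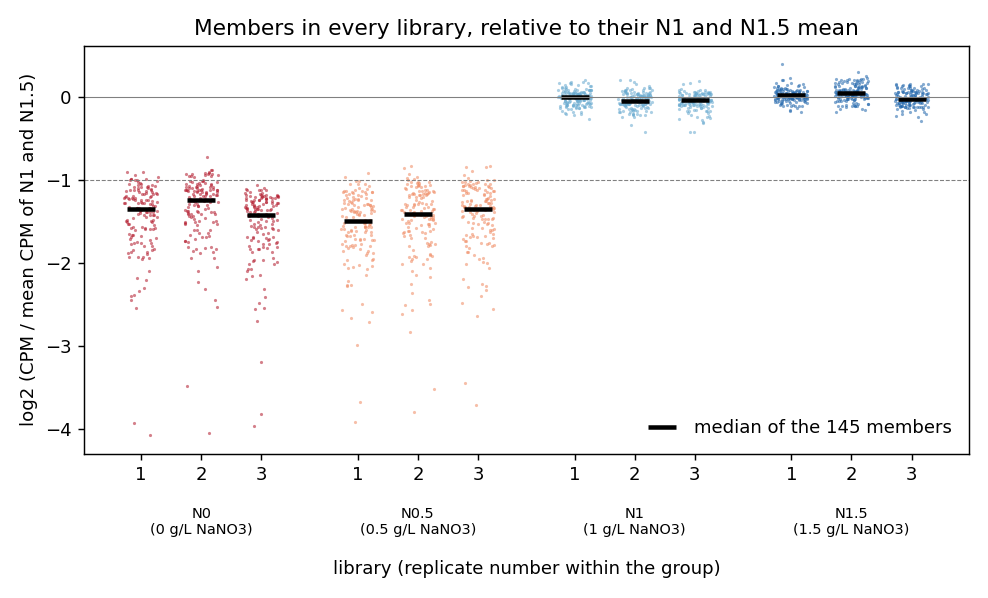
Each point is 1 of the 145 members in 1 library, as log2 of its CPM over its mean CPM in N1 and N1.5, with the 3 libraries of each NaNO3 level side by side and the median as a black bar. The 6 medians of N0 and N0.5 lie between -1.49 and -1.24, the 6 of N1 and N1.5 between -0.04 and 0.05, and 2 members lie far below the rest; the dashed line marks -1, a 2-fold fall.

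Together the members took 0.785% ± 0.027 of a library's counts in N0 and 0.824% ± 0.097 in N0.5, against 2.22% ± 0.13 in N1 and 2.17% ± 0.04 in N1.5 (SD, n = 3 each). These shares depend on which features are chosen. Chosen without N0.5 replicate 1, which drops the most abundant member, the members took 0.569% in N0 and 0.532% in N0.5, against 1.44% in N1 and 1.46% in N1.5. Chosen without N1 replicate 2, which also drops it, they took 0.593% in N0 and 0.542% in N0.5, against 1.50% in N1 and 1.52% in N1.5. Chosen with TMM scaling, they took 0.420% in N0 and 0.522% in N0.5, against 1.40% in N1 and 1.35% in N1.5. The 10 most abundant members held 69.3% of all member counts in N1 and N1.5, and the most abundant alone held 32.7%. With that member left out, the other members took 0.579% ± 0.025 in N0 and 0.531% ± 0.028 in N0.5, against 1.46% ± 0.03 in N1 and 1.49% ± 0.02 in N1.5. The order of N0 and N0.5 thus turned when the most abundant member was left out, and in both cases the N0 and N0.5 libraries overlapped.

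**Figure D2:**
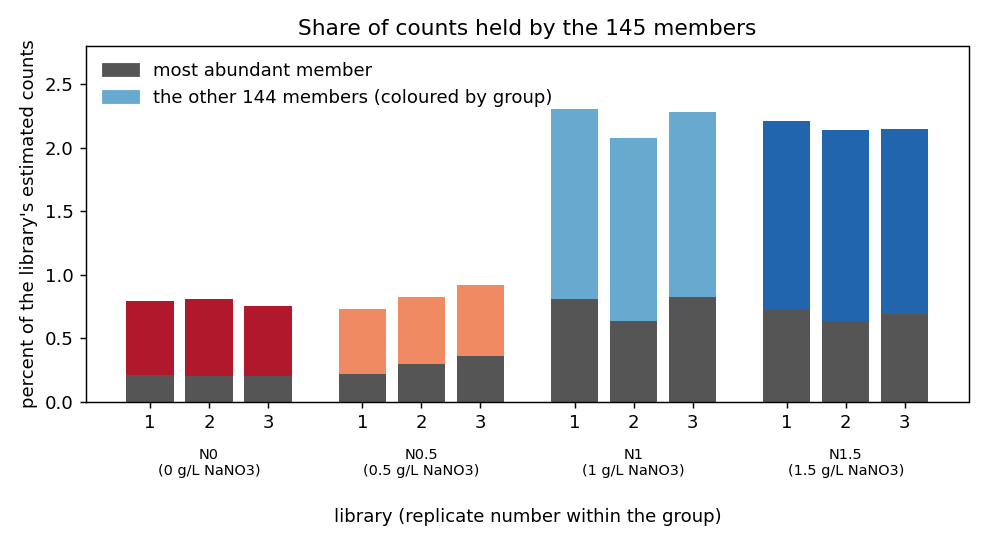
Bars give the percent of each library's estimated counts held by the members, split into the most abundant member (dark) and the other 144 (coloured by group). All N0 and N0.5 bars end between 0.727 and 0.921% and all N1 and N1.5 bars between 2.07 and 2.30%.

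The most abundant member, TRINITY_DN4242_c0_g1_i2_1, had 2121, 2046 and 2019 CPM in the N0 libraries and 2202, 2999 and 3593 CPM in the N0.5 libraries. It had 8107, 6339 and 8223 CPM in N1 and 7221, 6328 and 6860 CPM in N1.5. Every low-nitrate library was below every high-nitrate library, and all 3 N0 libraries were below all 3 N0.5 libraries, although the lowest N0.5 library lay close to N0. Its mean was 2.88-fold lower over N0 and N0.5 than over N1 and N1.5. It was also the most abundant member per length, at 1565 FPKM (fragments per kilobase, scaled to the library's total) over N1 and N1.5, and its effective length of 4601 bases was the greatest of all members. The spread in N0.5 was wide (2931 ± 698 CPM, SD, n = 3). Without N0.5 replicate 1, or without N1 replicate 2, this feature no longer met the rule. It also failed without the replicate 1 libraries of all 4 groups and without the 4 libraries named above.

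The deepest fall was that of TRINITY_DN4737_c0_g1_i3_2, which had 2.30, 3.15 and 2.49 CPM in N0 and 2.33, 2.53 and 2.68 CPM in N0.5. In N1 it had 34.9, 32.6 and 31.5 CPM and in N1.5 37.6, 39.8 and 34.7 CPM. Low and high libraries lay far apart, and the N0.5 libraries fell within the range of N0. Its mean was 13.6-fold lower over N0 and N0.5 than over N1 and N1.5, which left 7.33% of its level. Its level per length was 33.4 FPKM over N1 and N1.5, the 56th highest of the 145, and its effective length was 1056 bases. Without the 4 libraries named above it no longer met the rule, because its N1 and N1.5 means were then over 1.2-fold apart. Its log2 fold change was then -3.77 in N0.5 (1 library) against N1.5 and -3.68 in N0 against N1.5.

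**Figure D3:**
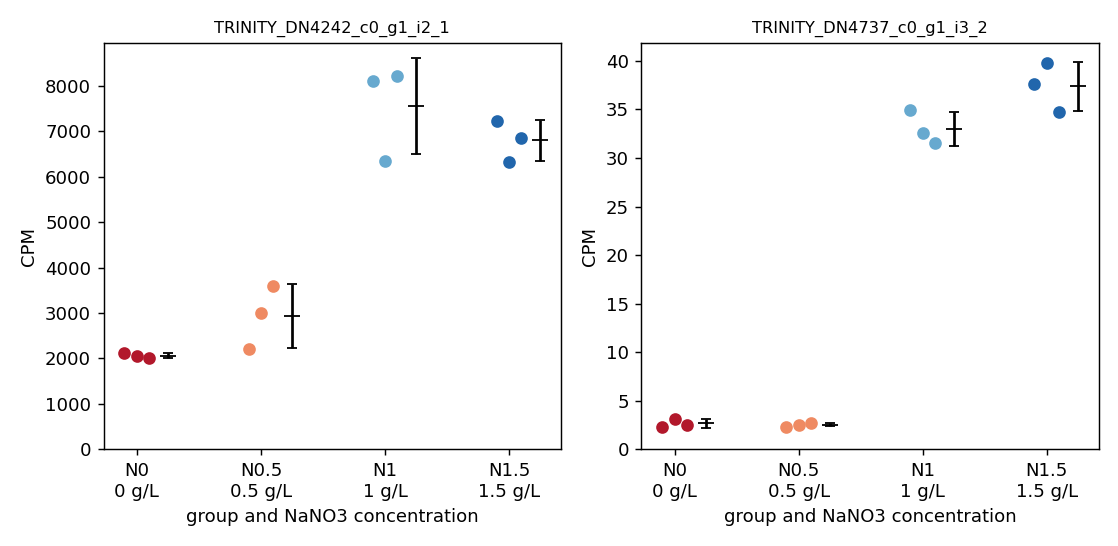
Points are the CPM of TRINITY_DN4242_c0_g1_i2_1 (left) and TRINITY_DN4737_c0_g1_i3_2 (right) in the 3 libraries at each NaNO3 level, and the bars beside them the mean and SD. On the left N0 lies between 2019 and 2121 CPM and N0.5 between 2202 and 3593 CPM, and on the right both low groups lie between 2.30 and 3.15 CPM.

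A second member fell as far. The 11th most abundant, with an effective length of 3328 bases, had 20.1 ± 0.79 CPM in N0 and 28.1 ± 2.24 CPM in N0.5, against 323.0 ± 3.42 CPM in N1 and 331.2 ± 24.1 CPM in N1.5 (SD, n = 3 each), a 13.6-fold lower mean. After these, the next deepest fall was 6.02-fold, by a low member with 1.12 ± 0.30 CPM in N0 and 1.22 ± 0.34 CPM in N0.5, against 6.80 ± 0.42 CPM in N1 and 7.31 ± 0.69 CPM in N1.5. The 6th deepest, at 5.02-fold, was among the 10 highest per length, with 421.7 FPKM over N1 and N1.5 and an effective length of 505 bases.

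The next most abundant members fell less. The second had 1062 ± 15.0 CPM in N0 and 944 ± 143 CPM in N0.5, against 2352 ± 22.2 CPM in N1 and 2430 ± 70.5 CPM in N1.5, a 2.38-fold fall. The third had 481 ± 27.0 CPM in N0 and 328 ± 11.6 CPM in N0.5, against 1216 ± 69.2 CPM in N1 and 1128 ± 34.6 CPM in N1.5, a 2.90-fold fall. The fourth had 297 ± 13.3 CPM in N0 and 416 ± 3.51 CPM in N0.5, against 968 ± 26.5 CPM in N1 and 994 ± 8.38 CPM in N1.5 (SD, n = 3 each). The third stood higher in N0 and the fourth higher in N0.5, each by more than its replicate spread. Per length, the third highest member was a short one of 487 bases at 1101 FPKM over N1 and N1.5, which by CPM ranked only the 8th.

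Most members averaged between 10 and 100 CPM at high nitrate. Over N1 and N1.5, 11 (7.59%) averaged under 10 CPM and 104 (71.7%) between 10 and 100 CPM. Another 27 (18.6%) averaged between 100 and 1000 CPM and 3 (2.07%) above that. Of the tested features, 6.10% averaged between 5 and 10 CPM and 50.6% between 10 and 100 CPM. Between 100 and 1000 CPM were 12.3% of them, and above that 0.875%. Per length, the median member stood at 9.97 FPKM in N0, 9.58 in N0.5, 25.9 in N1 and 26.8 in N1.5. The median of all tested features was 12.1 FPKM in N0, 13.0 in N0.5, 15.3 in N1 and 15.3 in N1.5. The rule's minimum in N1.5 and N1 and its limit on the low groups set where the members stand among these. Spearman's rho across the 145 members, which share the same libraries, was 0.03 between FPKM over N1 and N1.5 and the log2 ratio of low to high nitrate. The rule limited both quantities and the high-nitrate level is part of the ratio. The rho therefore cannot settle whether level and fall are related.

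In the fit of all features (quasi-likelihood test in edgeR, p-values adjusted by Benjamini and Hochberg's method), all 145 members were among the features called lower in N0 against N1.5, as were 31.2% of the tested features, and in N0.5 against N1.5, as were 31.3%. All were also called lower in N0 against N1 (29.7% of tested features) and in N0.5 against N1 (31.3%). Since the rule had used these contrasts, nothing is read from the counts. With the TMM scaling of this fit, the members' median log2 fold change was -1.19 in N0 against N1.5, between -3.87 and -0.83, and -1.34 in N0.5 against N1.5, between -3.80 and -0.92. The medians of all tested features were -0.01 and 0.05. Both comparisons share the N1.5 libraries. On library totals, the scale of the rule, the members' medians were -1.37 and -1.43 and those of all features -0.19 and -0.04, so library totals place all features lower in N0 than TMM does.

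**Figure D4:**
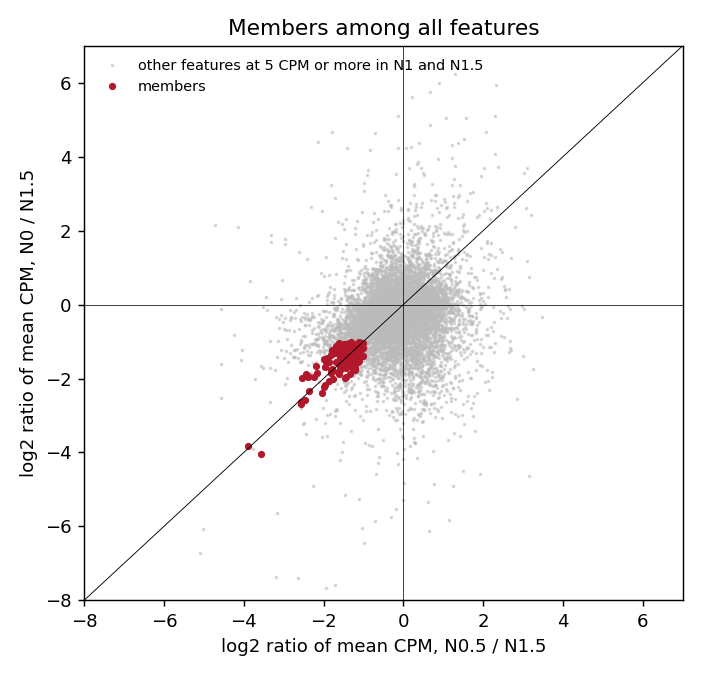
Each point is a feature with at least 5 CPM in N1 and N1.5; the horizontal axis is the log2 ratio of mean CPM in N0.5 to N1.5 and the vertical axis that of N0 to N1.5. The 145 members (red) lie along the diagonal below -1 on both axes, where the rule placed them, and 2 of them lie near -4.

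Between the 2 low levels, members went either way within the limit of 1.5-fold. By CPM, 64 were lower in N0 than in N0.5 and 81 the reverse, and 57 were within 1.1-fold. The edgeR fit called 66 of the 145 in N0 against N0.5, where 67.3% of the tested features were called. With that fit's TMM scaling, 51 of the 66 were higher and 15 lower in N0. Of the tested features, 34.2% were called higher and 33.1% lower in N0 with TMM. With library totals 52 members were called, 31 higher and 21 lower. Of the 15429 tested features, 10317 were then called, 4669 higher and 5648 lower in N0. The balance depended on scaling, for the members and for all tested features. The members called higher had a median log2 fold change of 0.48 and those called lower one of -0.39, both within the range the rule allowed. For 33 members all 3 N0 libraries lay above all 3 N0.5 libraries (31.9% of tested features did), and for 21 all 3 lay below (39.1%).

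Between N1 and N1.5, where the rule allowed less than 1.2-fold, edgeR called 0 members at an adjusted p under 0.05, against 7.58% of the tested features. The smallest edgeR adjusted p among the members was 0.065. DESeq2 called 2 members, against 1574 of the 16400 features it tested. By CPM, 101 members were lower and 44 higher in N1 than in N1.5. The median ratio of N1 to N1.5 was 0.968 over the members and 0.997 over the features at 5 CPM or more in both. For 24 members all 3 N1 libraries were below all 3 N1.5 libraries, as were 14.5% of tested features, and for 6 all 3 were above, as were 12.1%.

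The libraries of a group spread more for the members at low nitrate. Their median coefficient of variation was 8.77% in N0 and 8.80% in N0.5, against 5.34% in N1 and 5.36% in N1.5. The features at 5 CPM or more in N1.5 and N1 had medians of 7.20, 5.64, 5.98 and 5.65% in N0, N0.5, N1 and N1.5. At the members' median count, counting error alone is 5.72 to 6.26% in a low-nitrate library and 3.53 to 3.89% in a high-nitrate library.

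The rule and its limits were set with all 12 libraries known, so its repeat on fewer libraries is a description. It was applied 3 times to 8 libraries, each time without the libraries of 1 replicate number, and the 4 libraries left out were then read. The features chosen were largely the members, 118 of 139 without replicate 1, 129 of 149 without replicate 2 and 118 of 134 without replicate 3. Without the replicate 1 libraries 139 features were chosen, of which 107 (77.0%) stood at 0.5 or less of both N1 and N1.5 in both N0 and N0.5 in the left-out libraries, against 2.65% of all features that were steady in the 8. Without replicate 2 this held for 97 of 149 (65.1%, against 2.15%) and without replicate 3 for 102 of 134 (76.1%, against 2.53%). The chosen features' median log2 ratio of low to high nitrate in the left-out libraries was -1.41, -1.32 and -1.37. Over all features steady in the 8 libraries it was -0.20, -0.18 and -0.17. In the libraries that chose them, the chosen features' median was -1.35, -1.37 and -1.38. With 1 left-out library per group there is no test.

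Many members were short, though not all, and features that fell in N0.5 only were as short. The members' effective length, obtained from the ratio of counts to FPKM, ran from 362 to 4601 bases with a median of 1194 bases, against 1661 bases for all 10587 features at 5 CPM or more in N1.5 and N1. Of the members, 49 (33.8%) were under 1000 bases, against 16.6% of those features. Members made up 1.88% of the features under 750 bases (13 of 690), 3.39% of those between 750 and 1000 bases, 2.08% between 1000 and 1500, 0.891% between 1500 and 2500 and 0.251% of those of 2500 bases or more. The 529 steady features that fell to 0.5 or less in N0.5 only had a median of 1165 bases, and the 89 that fell in both but to unequal levels had 1169 bases. The 835 that fell in N0 only had a median of 1657 bases. A mirror-image rule, with N0 and N0.5 at least 2-fold above N1 and N1.5, found 17 features, and their median was 2411 bases. It kept the minimum of 5 CPM in N1.5 and N1, so features that rise from below that level are not among them. These differences in length are described and were not tested.

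Length also moved with the level of all features in N0.5. Among all features at 5 CPM or more in N1.5 and N1, the median log2 ratio to N1.5 under 750 bases was -0.25 in N0 and -0.50 in N0.5. At 2500 bases or more it was -0.12 in N0 and 0.21 in N0.5. Because the rule held every member to 0.5 or less of N1.5, the members' medians lay below those of all features at every length. They were -1.29 in N0 and -1.52 in N0.5 under 750 bases, and -1.88 in N0 and -1.84 in N0.5 in the 6 members of 2500 bases or more. With each library's trend with length removed, a step chosen after seeing the data, the rule gave 103 members, of which 86 were among the 145. The 145 then had a median log2 ratio of low to high nitrate of -1.23, against -1.36 before, and the least lowered stood at -0.79. The source of the trend was not tested.

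**Figure D5:**
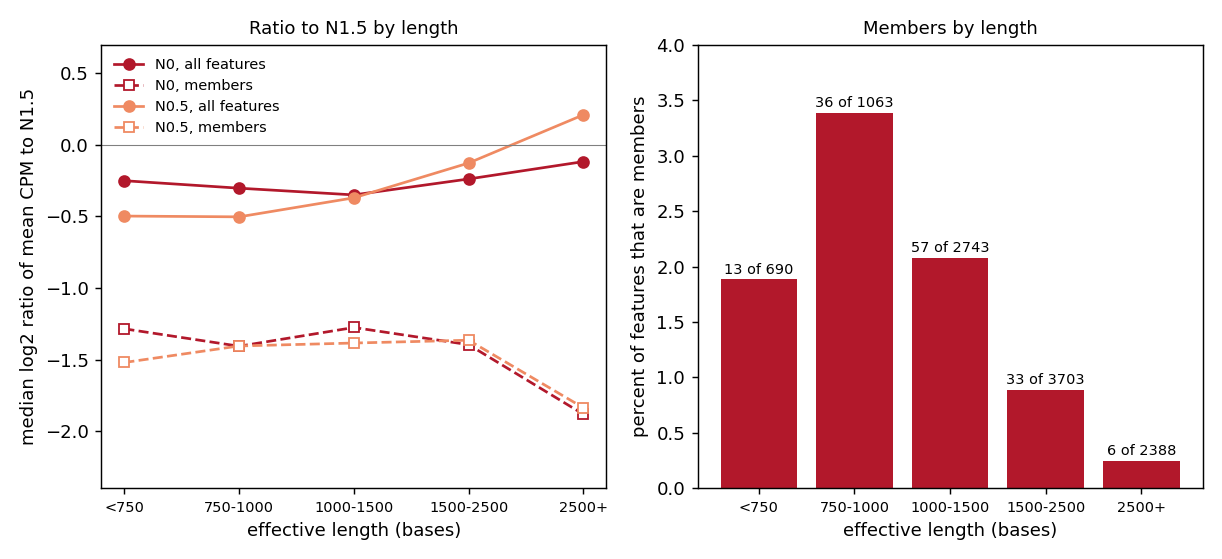
Left, the median log2 ratio of mean CPM to N1.5 by effective length, for all features at 5 CPM or more in N1 and N1.5 (filled circles) and for the members (open squares), in N0 and N0.5. Right, the percent of those features that are members, with their numbers. It is 1.88% under 750 bases, 3.39% at 750 to 1000 bases and 0.251% at 2500 bases or more. On the left the members stay below the medians of all features at every length, where the rule placed them.

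Few members shared an assembly cluster with another feature. Each name carries a cluster and a last number from 1 to 4, which the sources leave unexplained. Members with the last number 1, 2, 3 and 4 were 27.6, 26.9, 30.3 and 15.2% of the 145, and of the tested features 28.7, 23.8, 25.5 and 21.9% had them. Another feature of the same cluster and last number, which may hold related sequence, was present for 10 members (6.90%, against 18.7% of tested features), and 0 of those partners were members. Of the 13 partners, all of them tested, 2 were called lower in both N0 and N0.5 against N1.5 by edgeR, where 14.7% of the tested features were. Estimated counts can be split between near-identical features, which makes single members uncertain.

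The number of members depended on scaling. With CPM scaled by TMM the rule gave 98 members, 90 of them among the 145, and with RLE size factors 83, of which 76. Of the 10 most abundant members, 4 were kept with TMM and 4 with RLE.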

How the data were processed

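Poly(A)-selected RNA of 12 algal cultures was sequenced. Per the labels' protocols, DNase-treated RNA went into a NEBNext Ultra library kit. Trimmomatic 0.40, Bowtie2 2.4.5 and DESeq were used per the submitters' processing notes, with no role or order given. The sources used here name no counting tool, assembler or annotation. The authors deposited estimated counts (1 table) and FPKM values (another) for the same 16413 features. Between 2.41 and 3.66% of the deposited count values were whole within 0.001. Effective length was taken as count over FPKM, rescaled by the library's total, and its scale assumes that the FPKM were scaled to those totals. Over features with at least 10 counts this ratio differed by at most 1.01-fold between libraries.

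Members were chosen on CPM over column sums. Estimated counts were rounded and all 12 libraries fitted together in edgeR 4.0.16 (R 4.3.3) with TMM scaling (factors 0.908 to 1.07), 1 coefficient per group and the filterByExpr filter, which kept 15429 features, all 145 members among them. Tests were two-sided quasi-likelihood F tests with Benjamini-Hochberg adjustment over all tested features, and a feature is called at an adjusted p under 0.05. The test and the removal of the length trend were tried on simulated data. Alternatives were other scalings, no filter, DESeq2 1.42.0, limma 3.58.1 on log2(FPKM + 1), a replicate block and leaving out libraries. Replicates of a group differed by more than counting error (chi-square over its degrees of freedom 4.90 to 17.3). The named features are the member highest in mean CPM over N1.5 and N1 and the one with the deepest fall, by a rule set with the comparisons. The members, the comparisons and the length classes were chosen with earlier results of these data known.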

Additional observations from a re-analysis of the deposited data

Results flagged for a closer look

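The 2 low nitrate levels were alike by the rule, yet the difference between them was past the test's threshold for 66 of the 145 members in N0 against N0.5 (edgeR's quasi-likelihood test, adjusted p under 0.05, where 67.3% of all tested features were called). The rule used this contrast, so the count describes the members and supports nothing. With TMM scaling 51 of these members were higher and 15 lower in N0, where 34.2% of tested features were called higher and 33.1% lower. With library totals 52 members were called, 31 higher and 21 lower, where 4669 of 15429 tested features were called higher and 5648 lower. In the most abundant member all 3 N0 libraries were below all 3 N0.5 libraries. Its means were 2062 ± 53 and 2931 ± 698 CPM (SD, n = 3 each). Its edgeR adjusted p was 0.022, but above 0.05 without N0 replicate 2 (0.121) or 3 (0.056). The same held without N0.5 replicate 2 (0.060) or 3 (0.133). In the third most abundant the means were 481 CPM in N0 and 328 CPM in N0.5. Groups of 3 libraries are too small for a check of outlying libraries. The cause of these differences was not tested.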

How the results depend on the processing

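The number of members moved most with the fall required: it was 145 at 0.5, 45 at 0.4 and 334 at 0.6. It was 83 with RLE size factors and 98 with TMM, and 132 to 157 when libraries were left out. The members' share of counts was 0.420% in N0, 0.522% in N0.5, 1.40% in N1 and 1.35% in N1.5 when members were chosen with TMM. With 1 library left out and members chosen again it went from 0.569 to 0.811% in N0, 0.532 to 0.852% in N0.5, 1.44 to 2.29% in N1 and 1.46 to 2.24% in N1.5. The low ends came without N0.5 replicate 1, where the most abundant member no longer met the rule, as also without N1 replicate 2. The 4 counts of members called lower at low nitrate against N1.5 or N1 were 145 in the main fit. They stayed at 145 with RLE, library totals, no filter, DESeq2, limma, the replicate block and each library left out. In these fits 4244 to 6358 of 15429 to 16413 tested features were called lower. Leaving out the 4 libraries with a trace of N0 features was a choice made after seeing the data. The members' median log2 fold change in N0.5 against N1.5 was then -1.29, against 0.01 for all tested features. That choice leaves N0.5 with 1 library, which is assumed to vary like the other groups. In N1 against N1.5 edgeR called 0 members with TMM, where 1169 of the 15429 tested features were called. With any single library left out it also called 0 members, where 612 to 1320 of 15823 to 15861 tested features were. With library totals 1 member was called, where 1230 of the 15429 tested features were. DESeq2 called 2 members, where it called 1574 of 16400 features. In N0 against N0.5, 66 were called, 52 to 65 with 1 library left out and 40 without the 4 libraries, where 3 N0 libraries were set against 1 N0.5 library. Of all tested features, 10386 of 15429 were called there in the main fit. With 1 library left out, 9861 to 10216 of 15746 to 15804 were. Without the 4 libraries fewer of all tested features were called too, so the lower count is not read as a trait of the members. The other causes were not tested. Deviations from the group means correlated at -0.07 to 0.15 between same-numbered libraries and at -0.13 to 0.11 between different-numbered ones. These ranges overlap and show no clear pairing by replicate number, which groups of 3 libraries cannot settle. With the replicate number as a block, 68 members were called in N0 against N0.5, where 10392 of the 15429 tested features were. In N1 against N1.5 the block fit called 0 members, where 1184 tested features were called. In each of the other 4 comparisons it called all 145 lower, where 4597 to 4845 tested features were called lower. Depth limits the lowest members, with 18.8 counts at the least, and counting errors do not cover the spread between cultures.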
